A study of Mus musculus with 10 samples.

Results

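The comparison is that of B lymphocytes which had divided in culture and then did not divide again with the divided population they came from, across the genes of the deposited table. It rests on 4 of the 10 libraries of the series, 2 in each group. The tested cells, labelled div12_48_u and called non-dividing cells below, are splenic B cells of C57BL/6 mice, an inbred strain, in the phase the submitters name Phase II. They had received a pulse of antibodies to IgM (the antigen receptor) and to CD40 (a co-stimulatory receptor), were taken as divided cells at 48 h, were kept for another 48 h with anti-CD40 at 0.12 µg/ml, and were then sorted as cells that had not divided during that time. Their parents, labelled div12, are the divided cells at the end of the 48 h activation in Phase I, from the same strain and the same pulse of both antibodies. The other groups, each of 2 libraries, are the cells sorted as divided again after the same further culture (div12_48_d, called dividing Phase II cells), activated cells that had not divided at 48 h (div0) and resting cells (naive). Each Phase I replicate was a pool of 4 to 5 mice; whether the Phase II replicates were pools is not given in the sources used here. RNA came from 500000 sorted cells in Phase II and from 1000000 cells in Phase I, so phase, length of culture, the change of antibody, cell input and batch, where it differed, cannot be told apart in this comparison.

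A cell that stops dividing leaves the cycle in G1. In mammalian cells the retinoblastoma family of pocket proteins (RB1, RBL1, RBL2) then holds E2F factors and the DREAM complex on the promoters of replication and mitosis genes, while cyclin D kinases act against them and the inhibitor p27, encoded by Cdkn1b, acts on cyclin kinases. Quiescence of lymphocytes is further kept by FOXO and KLF factors, among them KLF2, which drives the egress receptor S1PR1. Survivin, encoded by Birc5 and named in the title of the series, belongs both to the inhibitors of apoptosis and to the chromosomal passenger complex, which corrects spindle attachment and serves cytokinesis.

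The promoters of the genes that carried the fall below are known for short elements through which DREAM and E2F act. The 4 shown were picked among genes that fell with the mitosis and replication groups and whose windows hold such an element. The sequences are those of RefSeq on GRCm38.p6, 250 bases before to 50 bases after the annotated start, 5′ to 3′ on the strand of the gene. Ccnb2 (chr9:70421505-70421804, minus strand) and Cdk1 (chr10:69352863-69353162, minus strand) are mitotic genes, and capitals mark each CHR element TTTGAA, the cell cycle genes homology region bound by DREAM. Mcm5 (chr8:75109259-75109558, plus strand) and Mcm3 (chr1:20820263-20820562, minus strand) encode subunits of the replicative helicase, and capitals mark the E2F forms TTTCGCGC, TTTGGCGC and TTTCCCGC on either strand, of which those of Mcm5 overlap.
Ccnb2: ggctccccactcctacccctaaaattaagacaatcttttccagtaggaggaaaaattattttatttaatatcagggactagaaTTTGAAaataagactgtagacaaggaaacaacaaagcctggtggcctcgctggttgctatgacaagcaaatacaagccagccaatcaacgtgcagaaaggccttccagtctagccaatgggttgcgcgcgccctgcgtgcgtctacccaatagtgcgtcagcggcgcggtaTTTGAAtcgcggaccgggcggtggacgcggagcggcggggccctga
Cdk1: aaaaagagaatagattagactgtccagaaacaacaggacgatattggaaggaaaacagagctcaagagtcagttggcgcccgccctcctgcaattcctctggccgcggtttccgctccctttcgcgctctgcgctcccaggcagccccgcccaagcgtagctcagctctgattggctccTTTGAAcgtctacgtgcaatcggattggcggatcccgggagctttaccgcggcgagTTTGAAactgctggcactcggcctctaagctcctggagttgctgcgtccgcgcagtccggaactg
Mcm5: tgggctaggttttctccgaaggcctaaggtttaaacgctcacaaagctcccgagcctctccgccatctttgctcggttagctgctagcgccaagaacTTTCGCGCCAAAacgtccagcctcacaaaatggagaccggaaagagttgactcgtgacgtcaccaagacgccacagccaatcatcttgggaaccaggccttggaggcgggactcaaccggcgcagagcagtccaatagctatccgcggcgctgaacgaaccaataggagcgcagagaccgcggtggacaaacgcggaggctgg
Mcm3: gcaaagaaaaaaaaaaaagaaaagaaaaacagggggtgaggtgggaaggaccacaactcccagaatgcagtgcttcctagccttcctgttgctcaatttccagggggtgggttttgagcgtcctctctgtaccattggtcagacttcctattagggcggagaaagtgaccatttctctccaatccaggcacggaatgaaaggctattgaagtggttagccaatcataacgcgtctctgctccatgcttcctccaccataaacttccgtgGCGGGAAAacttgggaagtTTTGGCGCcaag
Over the tested members of the mitosis lists, 23 of 29 had a promoter in the RefSeq table, and TTTGAA stood on either strand in 15 of these (65.2%). The share was 12.1% over the 3435 tested genes with a promoter and 18.1% over the 27025 promoters of the table. The CCAAT box, CCAAT on either strand, stood in 18 of the 23 (78.3%), against 38.3% of tested genes. Of the 31 tested members of the replication lists 25 had a promoter, and an E2F form stood in 10 of them (40%), against 3.93% of tested genes and 1.91% of the promoters in the table. The windows of Ccnb1 and Bub1 held no TTTGAA, and those of Rrm2, Uhrf1 and Lig1 no E2F form, though these genes fell as well. Among promoters of genes called lower the shares were 15.6% for TTTGAA and 9.34% for the E2F forms, and among those of genes called higher 9.89% and 2.27%. These are matches of letters in a window and say nothing of binding. The forkhead form GTAAACA stood in 2.68% of promoters of genes called higher and in 2.5% of those of tested genes, and the AP-1 form TGANTCA in 5.15% of promoters of genes called higher and in 6.32% of those of tested genes.

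Abundances are TPM (transcripts per 1000000 of each library, scaled per length), summed by gene symbol, and the depth behind them is unknown because TPM keeps no count. A change is a difference of mean log2(TPM + 1), non-dividing cells minus parents, given with its SE; low genes change by more than it shows. A gene is called where limma, fitted over the 10 libraries, gave a two-sided Benjamini-Hochberg adjusted p under 0.05 over the 4427 genes tested. By that rule 1828 genes differed between non-dividing cells and parents (41.3% of those tested), 1225 higher (27.7%) and 603 lower (13.6%), and the median change was 0.16. The balance of directions depends on the scaling: median-ratio scaling gave 788 higher and 978 lower with a median of -0.01, and quantile normalization gave 851 and 856. At least 2-fold changes were called for 246 genes higher (5.56%) and 153 lower (3.46%). The libraries of both groups did not overlap for 3223 genes (72.8%). No gene was listed at 0 in both libraries of one group and at 5 TPM or more in both libraries of the other.

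**Figure D1:**
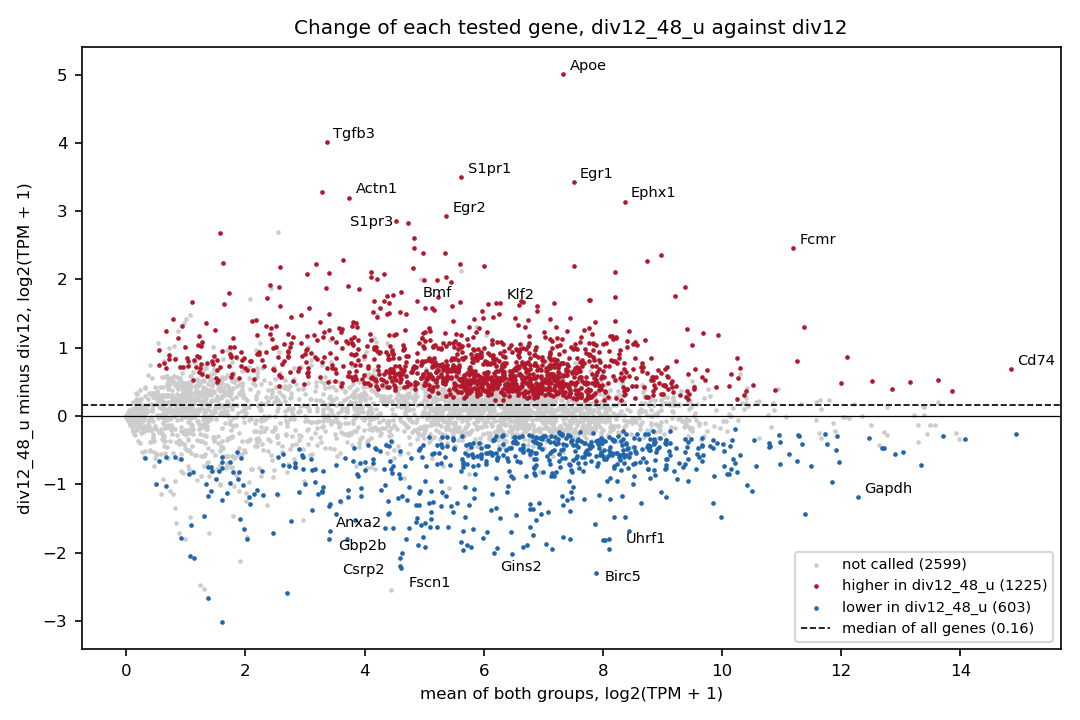
Each point is 1 of the 4427 tested genes, with the mean level of both groups on the x axis, log2(TPM + 1), and the change of div12_48_u (non-dividing cells) over div12 (parents) on the y axis. Genes called higher (1225) lie above 0 and genes called lower (603) below it; Apoe stands highest at 5.00 and the dashed line marks the median of 0.16.

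Over genes, the log2 ratio between replicates had an SD of 0.333 in non-dividing cells and 0.280 in parents, and 65 and 33 genes lay more than 2-fold apart between replicates. Both groups held B cell markers at high levels: of 8 tested genes of the B cell check 5 rose and 1 fell, and their summed level was 22380 and 21660 TPM in non-dividing cells, against 17780 and 18390 TPM in parents. Under median-ratio scaling 2 of the 8 rose and 1 fell. The sum of the T cell list was 382.9 and 436.7 TPM in non-dividing cells, against 167.2 and 181.5 TPM in parents. Most of it was Lck, at 346 and 401 TPM in non-dividing cells and at 137 and 151 TPM in parents. Cd3e, which defines T cells, averaged 0.0579 TPM in non-dividing cells and 0.0811 TPM in parents. The myeloid list summed to 180.5 and 175.5 TPM in non-dividing cells and 107.6 and 114.7 TPM in parents. Its excess was in Adgre1, and C1qa was listed at 0 in both groups. Only 28.7% of protein-coding symbols of the reference are in the table, so the counts below are counts over the listed part of each group of genes.

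The genes of mitosis fell together. Every tested member of the chromosomal passenger list (3 of 3) and of the spindle, kinesin and centromere list (14 of 14), and 11 of 12 G2/M cyclins and mitotic kinases, were lower in non-dividing cells, and none was higher. The medians of the 3 lists were -1.43, -1.53 and -1.75, against 0.16 over all tested genes, and both other scalings called each of these genes lower as well. Birc5 was at 113 and 98.5 TPM in non-dividing cells, against 540 and 505 TPM in parents. Its change was -2.29 ± 0.15 (limma adjusted p = 6.75e-05). This was the largest fall of the called genes that averaged 10 TPM or more in the higher group and did not overlap. Histones, unnamed gene models, immunoglobulin and T cell receptor segments and small RNAs were left out of that ranking. The kinase of the same complex, Aurkb, was at 85.9 and 63.3 TPM in non-dividing cells and at 242 and 166 TPM in parents (-1.43 ± 0.24), and its scaffold Incenp at 128 and 88.3 TPM in non-dividing cells, against 312 and 203 TPM in parents (-1.23 ± 0.23). The fall of survivin RNA was thus the largest among the 3 tested members of the complex, all of which fell, though the differences between them were not tested.

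Among the cyclins and kinases of entry into mitosis, Ccnb2, which encodes cyclin B2, was at 85.3 and 58.1 TPM in non-dividing cells, against 290 and 258 TPM in parents (-1.94 ± 0.17, limma adjusted p = 1.98e-04). Its catalytic partner Cdk1 was at 27.7 and 21.9 TPM in non-dividing cells and at 97.0 and 86.3 TPM in parents (-1.85 ± 0.16). These are the genes whose CHR elements are printed above. Ccnb1 (-1.89 ± 0.22) and the spindle checkpoint kinase Bub1 (-1.96 ± 0.21) fell to a like extent. Of the list only Cdc25b, a phosphatase that activates cyclin kinases, was not called, with a mean of 69.6 TPM in non-dividing cells and 89.7 TPM in parents, and both other scalings called it lower. Among spindle genes the largest falls were those of Tpx2, a microtubule nucleator (-1.91 ± 0.18), Ncapg2, a condensin II subunit (-1.88 ± 0.17), Mki67, which coats mitotic chromosomes and gives the proliferation marker Ki-67 (-1.68 ± 0.21), and Anln, the anillin of the cleavage furrow (-1.65 ± 0.19). Mki67 was at 231 and 157 TPM in non-dividing cells and at 706 and 533 TPM in parents. In all genes given here neither library of the non-dividing cells reached the level of either parent library. Over all tested genes the libraries of both groups did not overlap in 72.8%. The ranking of the largest falls required such a lack of overlap, so for genes taken from it this adds no support.

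**Figure D2:**
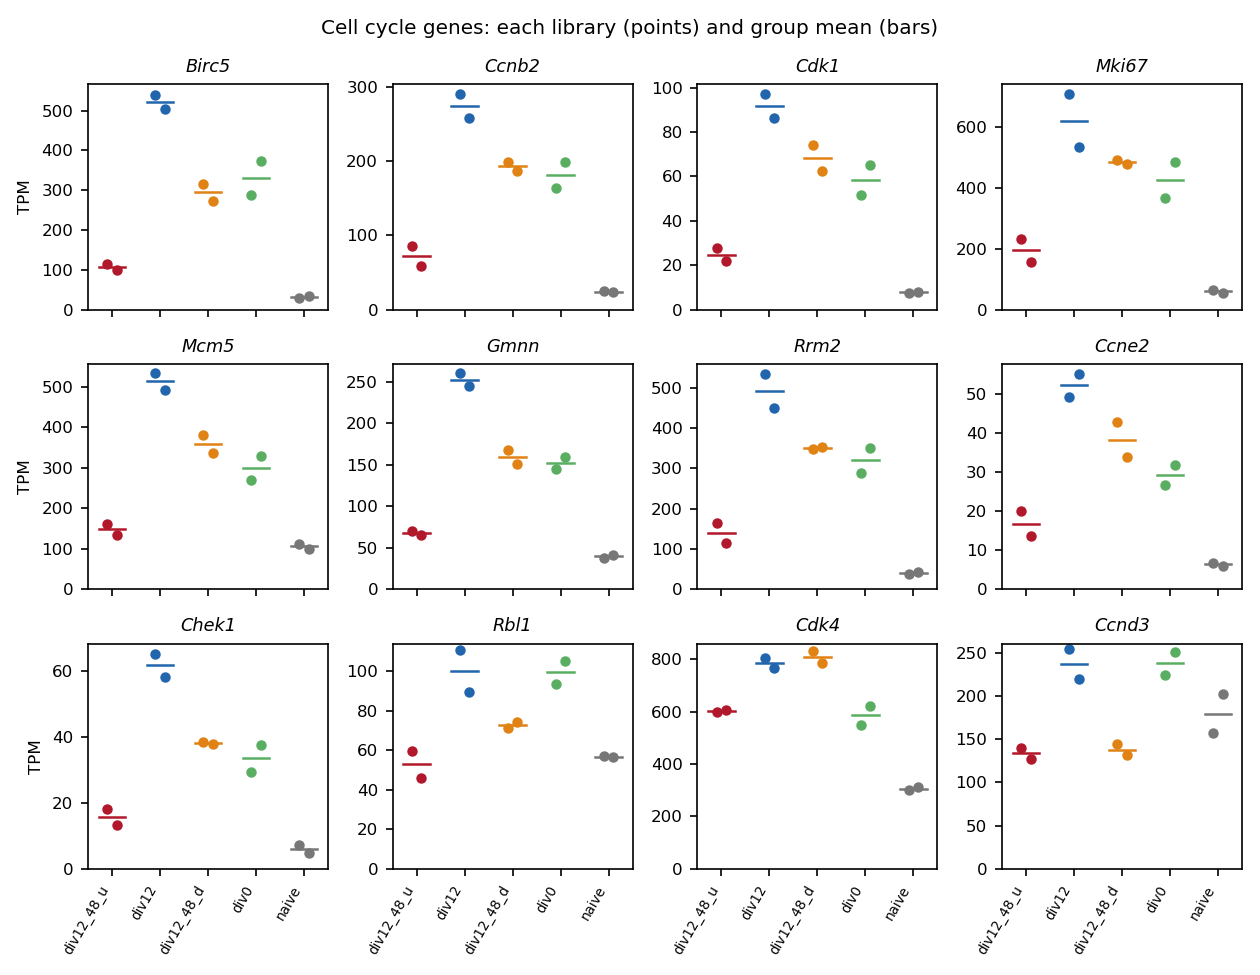
TPM of 12 cell cycle genes in each library (points) with the group mean (bars), for div12_48_u (non-dividing cells), div12 (parents), div12_48_d (dividing Phase II cells), div0 and naive. In the mitosis and replication genes non-dividing cells lie below parents and dividing Phase II cells and above naive cells, as for Birc5 at 113 and 98.5 TPM against 540 and 505 TPM in parents.

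Replication genes fell in the same way. Of 10 tested genes of origin licensing and the MCM helicase 9 fell and none rose (median -1.46), and of 14 S phase enzymes and fork factors 13 fell and none rose (median -1.28). Mcm5 was at 161 and 134 TPM in non-dividing cells, against 534 and 492 TPM in parents (-1.80 ± 0.13, limma adjusted p = 1.03e-04), and Mcm3 fell by 1.48 ± 0.13. Gins2, a subunit of the CMG helicase, was at 33.5 and 36.1 TPM in non-dividing cells and at 142 and 143 TPM in parents (-2.0 ± 0.12). Geminin, which blocks a second licensing of origins and is encoded by Gmnn, fell by 1.87 ± 0.10, while its target Cdt1 was not called, with means of 77.7 TPM in non-dividing cells and 98.4 TPM in parents. Neither other scaling called Cdt1.

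Among the enzymes that make and copy DNA, Uhrf1, which guides maintenance methylation, was at 158 and 119 TPM in non-dividing cells, against 621 and 457 TPM in parents (-1.95 ± 0.19). The ribonucleotide reductase subunit Rrm2 was at 164 and 116 TPM in non-dividing cells and at 534 and 449 TPM in parents (-1.82 ± 0.17). DNA ligase 1 (Lig1, -1.80 ± 0.16) and Dscc1, a part of an alternative clamp loader that falls outside the list (-2.0 ± 0.14), fell too. Tyms, the thymidylate synthase, was the 1 list member not called (-0.19), and both other scalings called it lower. In every gene given here both libraries of the non-dividing cells lay below both of the parents. The groups did not overlap in 72.8% of all tested genes either, and the ranking of the largest falls, which holds Dscc1, required it.

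The genes around the G1/S switch were divided. Of 7 tested E cyclins and E2F factors 6 fell and none rose (median -0.77). Ccne2 was at 20 and 13.7 TPM in non-dividing cells, against 49.4 and 55.3 TPM in parents (-1.60 ± 0.20), and Ccne1 fell by 1.31 ± 0.30 (limma adjusted p = 0.00865), a call lost without div12_48_u replicate 2 (limma adjusted p = 0.0504). Tfdp1, the partner of E2F (-0.95 ± 0.12), and Cdk2, the kinase of cyclins E and A (-0.77 ± 0.12), fell less. Of the 9 D cyclins, partners and pocket proteins 2 rose and 4 fell, with 2 and 5 under median-ratio scaling. The pocket proteins went in opposite directions: Rb1 was at 170 and 155 TPM in non-dividing cells, against 91.0 and 86.2 TPM in parents (0.86 ± 0.13, limma adjusted p = 0.00143), Rbl2 rose by 0.58 ± 0.11, and Rbl1 fell to 59.7 and 46.0 TPM, against 111 and 89.5 TPM in parents (-0.91 ± 0.15). These 3 calls held under both other scalings. Rbl1 is itself a known E2F target, and Rbl2 is the pocket protein of DREAM in resting cells.

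Of the D cyclins, Ccnd3 was at 140 and 127 TPM in non-dividing cells and at 254 and 220 TPM in parents (-0.82 ± 0.14, limma adjusted p = 0.0022). Ccnd2, the cyclin D that B cells induce on activation, was at 191 and 174 TPM in non-dividing cells, against 174 and 140 TPM in parents, and was not called (0.22 ± 0.14, limma adjusted p = 0.222). Their kinase Cdk4 was at 600 and 608 TPM in non-dividing cells and at 803 and 765 TPM in parents (-0.38 ± 0.08). Among 5 tested CDK inhibitors 1 rose and 1 fell, against 27.7% higher and 13.6% lower over all tested genes. Cdkn1b was at 157 and 171 TPM in non-dividing cells, against 111 TPM in each parent library (0.55 ± 0.10, limma adjusted p = 0.00313). Cdkn2a, whose locus encodes p16 and ARF, was at 4.17 and 4.91 TPM in non-dividing cells and at 7.59 and 8.90 TPM in parents, with a limma adjusted p of 0.0496 that rose to between 0.05 and 0.204 under 9 of the alternatives; it was at 57.0 and 45.5 TPM in dividing Phase II cells. Cdkn1a averaged 3.05 TPM in non-dividing cells and 4.19 TPM in parents and was not called.

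Repair genes of replicating cells fell with the replication genes. Of 14 tested genes of homologous recombination and the checkpoint 10 fell and 1 rose (median -0.75), and under either other scaling 12 fell and none rose. The checkpoint kinase gene Chek1 was at 18.2 and 13.3 TPM in non-dividing cells, against 65.4 and 58.4 TPM in parents (-1.92 ± 0.21, limma adjusted p = 3.56e-04), and the recombination motor Rad54l (-1.92 ± 0.24) and Brca1 (-1.63 ± 0.16) fell likewise. The 1 rise was that of Atm, the kinase that senses double-strand breaks, by 0.37 ± 0.09, a call that neither other scaling made.

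Genes that keep lymphocytes quiescent rose: of 18 tested 12 were higher and none lower in non-dividing cells (median 0.67), and 10 were higher and 1 lower under either other scaling. Part of the rise was shared with dividing Phase II cells, where 6 of the 18 were higher than in parents and none lower (median 0.33). Between both Phase II groups 4 of the 18 were higher in non-dividing cells and none lower. Klf2 was at 129 and 144 TPM in non-dividing cells, against 45.1 and 40.3 TPM in parents (1.65 ± 0.24, limma adjusted p = 0.00123). Foxo1 was at 179 and 154 TPM in non-dividing cells and at 92.8 and 72.0 TPM in parents (1.01 ± 0.16), and its relative Foxp1 (1.00 ± 0.15) and the antiproliferative gene Tob1 (1.03 ± 0.13) rose to a like extent. The groups did not overlap in these 4 genes, as in 72.8% of all tested genes. Tsc1 and Tsc2, whose products restrain mTORC1, also rose, by 0.69 and 0.55, though quantile normalization did not call Tsc2. Pik3ip1, an inhibitor of PI3 kinase that lies outside the list, was at 76.9 and 109 TPM in non-dividing cells, against 16.5 and 17.0 TPM in parents (2.38 ± 0.24), and Slc26a11 (2.86 ± 0.19), Ndrg1 (2.38 ± 0.13) and the deubiquitinase gene Otud1 (2.60 ± 0.16) were among the other 15 largest rises.

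Immediate early genes, which respond within minutes to many signals, were higher too. Of 19 tested 10 rose and none fell (median 1.17), with 9 under median-ratio scaling and 8 under quantile normalization. The rise was not particular to non-dividing cells. In dividing Phase II cells 7 of the 19 were higher than in parents and none lower (median 1.03). Between both Phase II groups 3 of the 19 were higher in non-dividing cells and none lower. Egr1 was at 691 and 466 TPM in non-dividing cells, against 34.5 and 78.1 TPM in parents (3.42 ± 0.54, limma adjusted p = 0.00182), and Egr2 was at 119 and 108 TPM in non-dividing cells, against 13.1 and 15 TPM in parents (2.93 ± 0.42). Zfp36, which destabilises mRNAs of cytokines and early genes, was at 1109 and 1160 TPM in non-dividing cells and at 183 and 265 TPM in parents (2.36 ± 0.34). Fos was at 18.0 and 42.4 TPM in non-dividing cells, against 1.25 and 2.85 TPM in parents (3.29 ± 0.72), and its call was lost without div12_48_u replicate 2 (limma adjusted p = 0.0541). Myc was not called: it was at 212 and 173 TPM in non-dividing cells and at 174 and 125 TPM in parents (0.37 ± 0.35, limma adjusted p = 0.426). These genes vary between replicates of 1 group, as the 2-fold gaps between replicates of Fos show.

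Among receptors that place B cells in lymphoid tissue, a few changed by large amounts. Of 18 tested homing and egress receptors 7 rose and 2 fell (median 0.35), against 27.7% higher and 13.6% lower over all tested genes, so the counts lie near the background; 7 rose and 3 fell under both other scalings. S1pr1, which reads the sphingosine phosphate gradient for exit from lymphoid organs, was at 137 and 195 TPM in non-dividing cells, against 14.0 and 13.2 TPM in parents (3.5 ± 0.29, limma adjusted p = 1.54e-04). S1pr3, the receptor that holds marginal zone B cells in place together with S1pr1, was at 61 and 78.4 TPM in non-dividing cells and at 10.4 and 7.61 TPM in parents (2.82 ± 0.22). The chemokine receptor Cxcr4 was at 143 and 158 TPM in non-dividing cells, against 60.3 and 50.1 TPM in parents (1.43 ± 0.17), and the integrin subunit Itgb7 rose by 1.18 ± 0.25. The falls were those of Cd44, the hyaluronan receptor raised on activated lymphocytes, at 138 and 108 TPM in non-dividing cells against 244 and 230 TPM in parents (-0.95 ± 0.15), and of Cxcr3, which stayed under 3 TPM in all 4 libraries and lost its call under 3 alternatives (limma adjusted p from 0.0847 to 0.127).

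**Figure D3:**
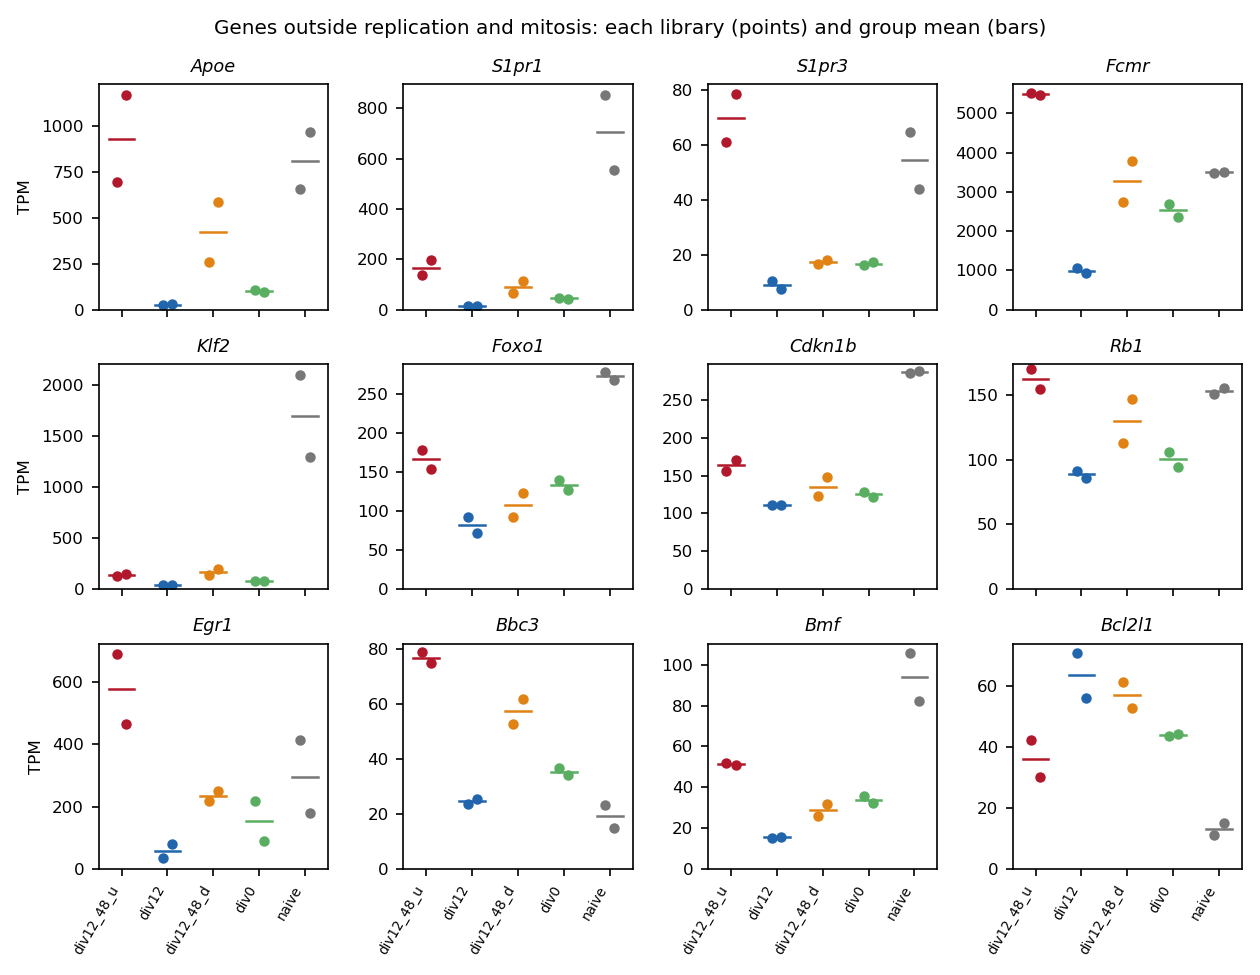
TPM of 12 genes outside replication and mitosis in each library (points) with the group mean (bars), for div12_48_u (non-dividing cells), div12 (parents), div12_48_d (dividing Phase II cells), div0 and naive. Apoe, S1pr1, S1pr3 and Fcmr are higher in both non-dividing libraries than in either parent library, and Klf2 at 129 and 144 TPM stays far below the naive libraries at 2103 and 1292 TPM.

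The largest rise of the comparison was that of Apoe, the lipid carrier apolipoprotein E. It was at 693 and 1169 TPM in non-dividing cells, against 25.5 and 28.7 TPM in parents (5.00 ± 0.38, limma adjusted p = 1.12e-04). In dividing Phase II cells Apoe was at 258 and 586 TPM, also above parents (3.80 ± 0.38). Non-dividing cells lay 1.21 ± 0.38 above dividing Phase II cells (limma adjusted p = 0.0481). Macrophages also express Apoe, and of their markers C1qb averaged 0.111 TPM in non-dividing cells and 0.233 TPM in parents, and Csf1r 0.0792 TPM in non-dividing cells and 0.304 TPM in parents. Adgre1, another macrophage marker, was at 108 and 103 TPM in non-dividing cells and at 29.3 and 43.5 TPM in parents, and the myeloid list as a whole is given above; the part of macrophage RNA in the rise of Apoe was not tested. The lipid efflux transporter Abca1 rose with it, at 19.3 and 23.7 TPM in non-dividing cells against 8.32 and 6.95 TPM in parents (1.38 ± 0.23). Ephx1, a microsomal epoxide hydrolase, was at 834 and 1131 TPM in non-dividing cells and at 97.4 and 122 TPM in parents (3.14 ± 0.21). Fcmr, the Fc receptor for IgM, was at 5510 and 5481 TPM in non-dividing cells, against 1049 and 944 TPM in parents (2.46 ± 0.14), the most abundant of the 15 largest rises. Tgfb3 (4.01 ± 0.79), a growth factor of the TGF-beta family, was at 22.7 and 62.7 TPM in non-dividing cells against 1.91 and 0.988 TPM in parents, so its replicates differed more than 2-fold. Actn1, an actin cross-linker (3.20 ± 0.46), and Ank, a membrane transporter of pyrophosphate and ATP release (2.46 ± 0.15), complete the 15 largest rises. In bulk RNA a rise in each cell and a larger share of cells that hold the RNA cannot be told apart, and this applies to every change given here.

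Of the 15 largest falls, 4 were of genes outside mitosis, replication and repair. Fscn1, the actin bundler fascin, was at 12.5 and 7.91 TPM in non-dividing cells, against 63.4 and 40.4 TPM in parents (-2.23 ± 0.37). Csrp2, a LIM domain protein, was at 9.03 and 11.6 TPM in non-dividing cells and at 50.8 and 50.3 TPM in parents (-2.20 ± 0.14). Gbp2b, a guanylate binding protein of the interferon response whose reads may be shared with close relatives, was at 14.1 and 7.87 TPM in non-dividing cells against 49.9 and 46.1 TPM in parents (-2.08 ± 0.24). Fscn1 and Gbp2b were also lower in dividing Phase II cells than in parents (-2.21 and -1.58). Neither was called between both Phase II groups. Csrp2 fell in dividing Phase II cells as well (-1.14), and was called lower in non-dividing than in dividing Phase II cells (-1.05). Tmem176b (-2.03 ± 0.51) was at 66.3 and 24.3 TPM in non-dividing cells and at 150 and 186 TPM in parents, and its call was lost under 2 alternatives (limma adjusted p of 0.0764 and 0.0849).

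Genes of the BCL2 family, which set the threshold for apoptosis, moved both ways, with 5 of 13 higher and 4 lower, and 4 higher and 5 lower under both other scalings. BH3-only genes, whose products promote death, were among both. Bmf was at 52.1 and 51.0 TPM in non-dividing cells, against 15 and 15.8 TPM in parents (1.68 ± 0.15, limma adjusted p = 1.98e-04). Bbc3, which encodes PUMA, was at 78.6 and 74.6 TPM in non-dividing cells and at 23.5 and 25.4 TPM in parents (1.61 ± 0.19). Bcl2l11, which encodes BIM, was at 195 and 198 TPM in non-dividing cells, against 92.2 and 74.3 TPM in parents (1.24 ± 0.33), and lost its call under 3 alternatives (limma adjusted p from 0.0705 to 0.0959). Bid, also a BH3-only gene, was at 432 and 372 TPM in non-dividing cells, against 673 and 705 TPM in parents (-0.78 ± 0.19), a call lost under 2 alternatives (limma adjusted p of 0.0586 and 0.0694). The effector Bak1 fell by 0.32, a call lost under 13 alternatives (limma adjusted p from 0.0503 to 0.194), and the effector Bax rose by 0.26. The anti-apoptotic genes did not share a direction. Bcl2 rose by 0.68 ± 0.13, Bcl2l1, which encodes BCL-XL, was at 42.3 and 30.0 TPM in non-dividing cells against 70.8 and 55.9 TPM in parents (-0.80 ± 0.20, lost under 2 alternatives at limma adjusted p of 0.0835 and 0.0886), and Mcl1 was not called, at 999 TPM in non-dividing cells and 757 TPM in parents. Among 14 p53 targets 3 rose and 1 fell, which does not exceed the 27.7% higher and 13.6% lower over all tested genes. They were Bbc3, Trp53inp1 (1.15 ± 0.16) and Mdm2 upward and Fas downward. Both other scalings gave 2 and 2 and did not call Mdm2. Fas, the death receptor that CD40 signals raise on B cells, was at 124 and 88.0 TPM in non-dividing cells and at 227 and 249 TPM in parents (-1.17 ± 0.21).

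Genes of the resting B cell were partly higher in non-dividing cells. Of 24 tested 13 rose and 2 fell (median 0.35), also under quantile normalization, and 5 rose and 4 fell under median-ratio scaling, so the direction of the smaller changes rests on the scaling. Larger ones were those of Bach2, a repressor of plasma cell fate, at 145 and 125 TPM in non-dividing cells against 78.0 and 59.0 TPM in parents (0.98 ± 0.15), of the lineage factor Ebf1 (0.77 ± 0.13) and of the inhibitory receptor Cd22 (0.56 ± 0.12). Fcer2a, the low affinity IgE receptor CD23, fell to 2089 and 1628 TPM, against 2700 and 2722 TPM in parents (-0.56 ± 0.13), a call lost under 2 alternatives (limma adjusted p of 0.0536 and 0.0679). Of 9 genes of MHC class II presentation 7 rose and none fell, with 3 under median-ratio scaling and 8 under quantile normalization. Cd74, the invariant chain, was at 38910 and 35910 TPM in non-dividing cells, against 25730 and 20850 TPM in parents (0.69 ± 0.13), and Ciita, the transactivator of the class II genes, rose by 0.72 ± 0.10. Class I presentation differed: none of 13 genes rose and 3 fell (none and 6 under median-ratio scaling, 2 and 3 under quantile normalization). The 3 are the immunoproteasome subunit Psmb9 (-0.68 ± 0.10) and the folding factors Calr and Pdia3.

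Genes of plasma cells were higher in 4 of 9 cases and lower in none, with 4 and 1 under both other scalings. Their levels stayed low for the regulator Prdm1, which was at 8.38 and 8.26 TPM in non-dividing cells and at 1.95 and 1.70 TPM in parents (1.72 ± 0.38, limma adjusted p = 0.00768). Sdc1, the plasma cell antigen CD138, was at 10.3 and 29.5 TPM in non-dividing cells, against 2.88 and 3.04 TPM in parents (2.23 ± 0.50). Pim2, a survival kinase, was at 363 and 320 TPM in non-dividing cells and at 149 and 129 TPM in parents (1.29 ± 0.15), and Zbtb20 rose by 1.57 ± 0.26. Xbp1, the secretory regulator, was not called, with means of 117 TPM in non-dividing cells and 141 TPM in parents, and the other scalings called it lower. Of 21 germinal centre and memory genes 11 rose and 2 fell, and 10 and 3 under both other scalings, with Klf2, Efnb1 (1.2 ± 0.16), Ski (1.15 ± 0.18) and Bhlhe41 (1.02 ± 0.17) leading. Among 15 B1 cell genes 2 rose and 2 fell, against 27.7% higher and 13.6% lower over all tested genes. Median-ratio scaling gave 2 and 3 and quantile normalization 1 and 3. The falls were of Anxa2, an annexin, to 4.44 and 5.33 TPM against 14.5 and 22.2 TPM in parents (-1.69 ± 0.19), and of the galectin gene Lgals1 (-1.29 ± 0.21).

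Of 28 tested genes of the response to CD40 and NF-kB, the pathway that CD40 engages, 7 were higher and 5 lower. Over all tested genes 27.7% were higher and 13.6% lower, so these counts lie near the background. Median-ratio scaling gave 3 and 8 and quantile normalization 4 and 7. Map3k14, the kinase NIK of the alternative pathway, was at 63.2 and 62.8 TPM in non-dividing cells, against 39.2 and 27.8 TPM in parents (0.91 ± 0.18), and Rela rose by 0.73 ± 0.15. The T cell attractant Ccl22 was at 198 and 83.6 TPM in non-dividing cells and at 396 and 374 TPM in parents (-1.57 ± 0.44), a call lost under 3 alternatives (limma adjusted p from 0.0774 to 0.125). Cd40 itself was at 320 and 245 TPM in non-dividing cells, against 420 and 430 TPM in parents (-0.60 ± 0.17), also lost under 3 (limma adjusted p from 0.0656 to 0.133). Of 25 interferon response genes 3 rose and 7 fell (median -0.24), and 2 and 13 under median-ratio scaling and 2 and 11 under quantile normalization. The fall was not particular to non-dividing cells. In dividing Phase II cells 1 of the 25 was higher than in parents and 11 were lower (median -0.54). Between both Phase II groups 5 of the 25 were higher and 1 lower in non-dividing cells. Mx1 was at 4.83 and 7.27 TPM in non-dividing cells and at 17.7 and 17.8 TPM in parents (-1.43 ± 0.27), Ifit2 fell by 1.14 ± 0.17 and Gbp2 by 0.87 ± 0.16, while Irf2 (0.99 ± 0.16) and Irf8 (0.57 ± 0.07) rose. The remaining rise, of Ifi205 (1.65), was lost under 6 alternatives (limma adjusted p from 0.0612 to 0.181).

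Energy and growth genes were mostly lower. Of 33 tested genes of oxidative phosphorylation 25 fell and none rose (median -0.46), with 32 and 26 lower under median-ratio scaling and quantile normalization. The ATP synthase genes Atp5k (-0.88 ± 0.13), Atp5a1 (-0.78 ± 0.07) and Atp5b (-0.74 ± 0.09) and the respiratory chain gene Ndufa4 (-0.73 ± 0.12) fell furthest; Atp5b was at 1189 and 1159 TPM in non-dividing cells, against 2058 and 1860 TPM in parents. Glycolysis was split, with 4 of 20 genes higher and 6 lower, and 4 and 9 under median-ratio scaling and 4 and 7 under quantile normalization. Gapdh was at 3488 and 3141 TPM in non-dividing cells and at 7709 and 7323 TPM in parents (-1.18 ± 0.11), and Pgk1 (-0.92 ± 0.08), Ldha (-0.60 ± 0.08) and the lactate transporter Slc16a1 (-1.21) fell as well, the last with its call lost under 2 alternatives (limma adjusted p of 0.057 and 0.0674). Aldoa was at 1618 and 1610 TPM in non-dividing cells, against 1052 and 927 TPM in parents (0.71 ± 0.08), and Pdk1, which keeps pyruvate out of mitochondria, rose by 0.82 ± 0.11. The same enzyme chain thus held RNAs called in opposite directions under each scaling.

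Among cholesterol genes 10 of 18 fell and 2 rose (median -0.60), and 12 fell and 1 rose under both other scalings. Idi1, an isomerase of the isoprenoid steps, was at 99.5 and 66.0 TPM in non-dividing cells, against 233 and 203 TPM in parents (-1.41 ± 0.21), and Acat2 (-1.12 ± 0.17), Lss (-1.09 ± 0.22) and Fdft1 (-1.06 ± 0.17) fell. The largest rise in that list was of the export gene Abca1, given with Apoe above. Of 9 genes of nucleotide synthesis 6 fell and none rose (median -0.47; 7 fell under both other scalings), led by Umps of the pyrimidine pathway (-1.04 ± 0.12) and the nucleoside diphosphate kinase gene Nme2 (-1.01 ± 0.09). Serine synthesis fell at each of its 3 listed enzymes, Psat1 (-1.40 ± 0.18), Phgdh (-0.91 ± 0.12) and Psph (-0.61 ± 0.12), in a list where 3 of 9 genes fell and 1 rose, and where 5 fell and none rose under both other scalings. Phgdh was at 320 and 326 TPM in non-dividing cells and at 662 and 560 TPM in parents.

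Genes of protein synthesis and folding were called lower in part. Of 22 ribosomal protein genes 8 fell and none rose (median -0.24), and 14 and 6 fell under median-ratio scaling and quantile normalization. Rps2 was at 6230 and 6385 TPM in non-dividing cells, against 9630 and 8863 TPM in parents (-0.55 ± 0.09). Of 11 genes of ribosome assembly 6 fell and none rose, with nucleophosmin (Npm1, -0.73 ± 0.07), Nop58 (-0.58 ± 0.10) and nucleolin (Ncl, -0.53 ± 0.10) among them. In the list of the unfolded protein response and chaperones 10 of 22 fell and 3 rose (13 and 1 under median-ratio scaling, 10 and 2 under quantile normalization). The falls were of folding factors of the endoplasmic reticulum, Sdf2l1 at 67.1 and 69.7 TPM in non-dividing cells against 218 and 179 TPM in parents (-1.52 ± 0.12), Manf (-0.95 ± 0.09), Hsp90b1 (-0.84 ± 0.07) and Calr (-0.82 ± 0.14). The sensor gene Ern1 rose by 1.14 ± 0.28, at 15.4 and 14.9 TPM in non-dividing cells and 7.38 and 5.40 TPM in parents, with 2 alternatives that lost its call (limma adjusted p of 0.0594 and 0.0792).

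Genes of autophagy and the lysosome were the largest group that rose without a fall: 22 of 35 were higher and none lower (median 0.51), with 14 higher and 3 lower under median-ratio scaling and 16 and 1 under quantile normalization. Dividing Phase II cells shared part of this rise, with 10 of the 35 higher than in parents and none lower (median 0.35). Between both Phase II groups 5 of the 35 were higher and 1 lower in non-dividing cells. Gaa, the acid glucosidase that breaks down glycogen in the lysosome, was at 114 and 119 TPM in non-dividing cells, against 44.9 and 30.1 TPM in parents (1.64 ± 0.18). Mcoln1, the lysosomal calcium channel, was at 151 and 152 TPM in non-dividing cells and at 78.5 and 70.6 TPM in parents (1.02 ± 0.10). The initiating kinase gene Ulk1 rose by 1.00 and the cargo receptor gene Sqstm1 by 0.82. Tfeb, the factor known to drive this gene group, was not called, with means of 209.5 TPM in non-dividing cells and 215.7 TPM in parents.

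**Figure D4:**
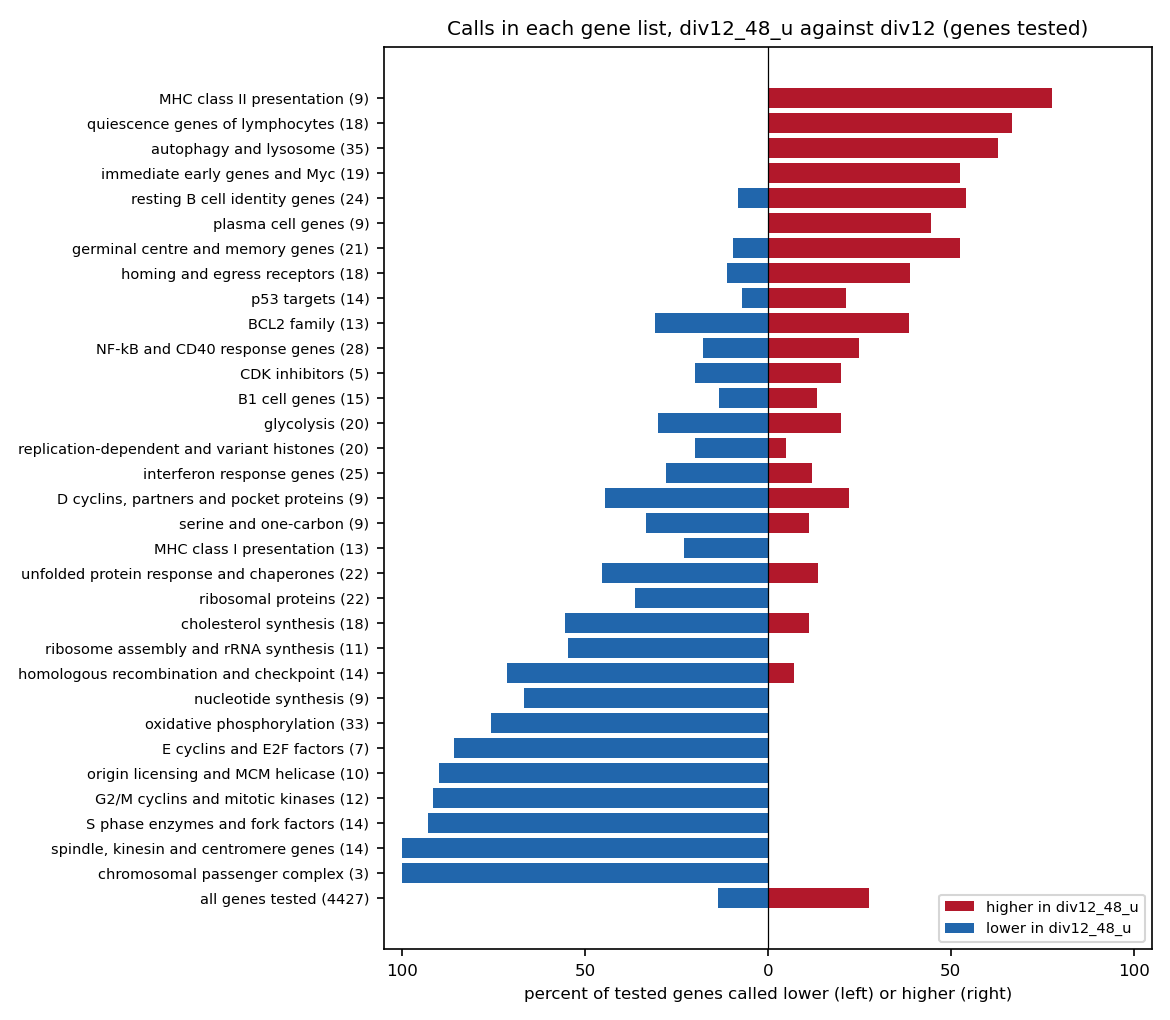
Percent of the tested genes of each list called lower (left) or higher (right) in div12_48_u (non-dividing cells) relative to div12 (parents), with the number tested in brackets and the same over the 4427 genes at the bottom. The mitosis and replication lists lie almost wholly on the left, against 13.6% over all tested genes, and the MHC class II, quiescence and autophagy lists on the right, against 27.7%.

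Histone genes need care because the libraries were made from rRNA-depleted total RNA, which holds RNAs without a poly(A) tail, and because near-identical copies may share reads. Of 20 tested 4 fell and 1 rose, against 13.6% lower and 27.7% higher over all tested genes. H2afz, the variant H2A.Z, was at 641 and 571 TPM in non-dividing cells, against 1660 and 1704 TPM in parents (-1.47 ± 0.11), and the replication-dependent Hist1h3c was at 7.29 and 7.53 TPM in non-dividing cells and at 27.6 and 19.3 TPM in parents (-1.52 ± 0.28). Hist2h2ac rose by 1.76 ± 0.45, a call lost under 2 alternatives (limma adjusted p of 0.0809 and 0.0937).

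Markers of other cells gave few calls, on short lists. Over all tested genes 27.7% were called higher and 13.6% lower. In the T cell list 1 of 7 rose, Lck, at 346 and 401 TPM in non-dividing cells against 137 and 151 TPM in parents (1.37 ± 0.09, limma adjusted p = 7.29e-05); B cells also express this kinase. In the myeloid list 1 of 17 rose, Adgre1, which encodes the F4/80 antigen, at 108 and 103 TPM in non-dividing cells against 29.3 and 43.5 TPM in parents (1.54 ± 0.41), lost under 4 alternatives (limma adjusted p from 0.0533 to 0.0982). None of 5 NK genes was called. Flt3 was the 1 dendritic call, at 35.9 and 23.9 TPM in non-dividing cells and at 73.2 and 96.1 TPM in parents (-1.48 ± 0.23). In the erythroid and platelet list 2 of 6 rose and 1 fell, near the shares over all tested genes, and none rose under both other scalings. Its Hbb-b1, the beta globin, was at 34.0 and 43.5 TPM in non-dividing cells against 20 and 25.4 TPM in parents, a call that neither other scaling made. The part of any of these cells in the changes above was not tested.

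At the level of transcripts 1891 of 8165 tested differed (23.2%), 1319 higher and 572 lower (608 and 1049 under median-ratio scaling, 727 and 801 under quantile normalization), and in 20 of the 1849 genes with more than 1 tested transcript (1.08%) 1 transcript was called higher and 1 lower. Ssbp1, a mitochondrial single-strand DNA binding protein, showed the clearest exchange. NM_001286663 was at 119 and 129 TPM in non-dividing cells, against 45.4 and 48.6 TPM in parents (1.38 ± 0.14, limma adjusted p = 9.17e-04), and NM_212468 was at 11.3 and 15.9 TPM in non-dividing cells and at 58.0 and 62.0 TPM in parents (-2.08 ± 0.23). The parents held the larger amount as NM_212468 and the non-dividing cells as NM_001286663, while the sum over both changed by 0.36 ± 0.10, a call lost under 4 alternatives (limma adjusted p from 0.0959 to 0.344). E2f3 was not called as a gene (-0.21 ± 0.14), but its transcript NM_010093 was at 8.94 and 5.78 TPM in non-dividing cells against 27.4 and 19.8 TPM in parents (-1.57 ± 0.25), and NM_001359994 rose by 0.89 ± 0.25. For Hmgb1, a chromatin protein, the major transcript NM_010439 was at 449 and 427 TPM in non-dividing cells and at 920 and 928 TPM in parents (-1.08 ± 0.10), and the minor NM_001313894 rose by 0.76 ± 0.16. Hccs, Rnf145 and Unkl are the other 3 genes named for such a pair. How reads were assigned to transcripts is not given in the sources used here, and transcripts of 1 gene share most of their sequence.

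**Figure D5:**
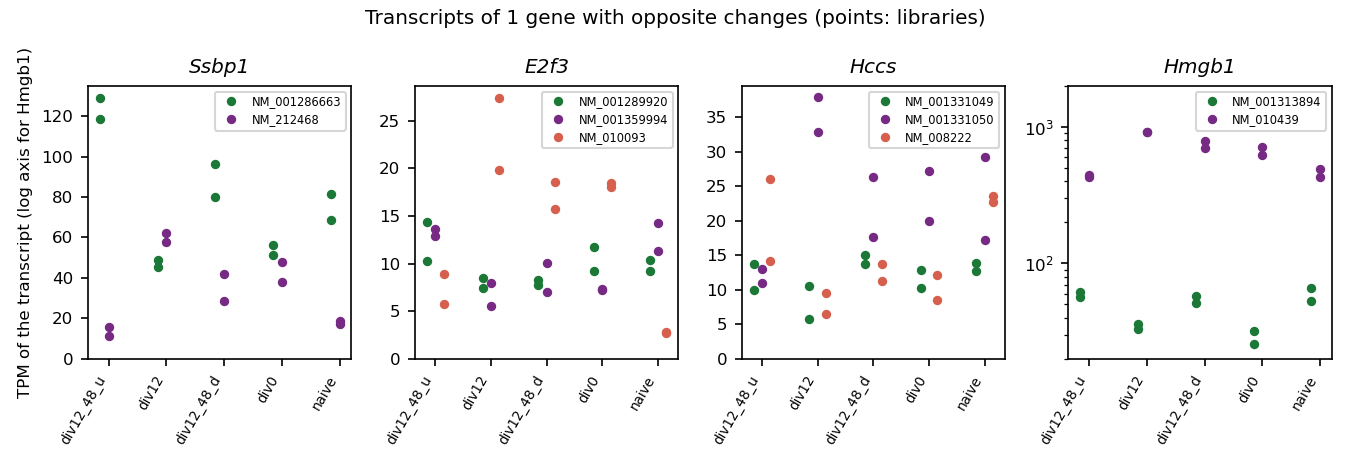
TPM of single transcripts of 4 genes in each library (points), for div12_48_u (non-dividing cells), div12 (parents), div12_48_d (dividing Phase II cells), div0 and naive; the axis is logarithmic for Hmgb1. In Ssbp1 the transcript NM_001286663 stands above NM_212468 in non-dividing cells and below it in parents.

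The dividing cells of Phase II, which shared medium and time with the non-dividing cells, give a comparison within Phase II. Non-dividing against dividing Phase II cells, 1134 genes differed (25.6%), 594 higher (13.4%) and 540 lower (12.2%), with 482 and 674 under median-ratio scaling. Both comparisons share the libraries of the non-dividing cells, so their values are given side by side and not as independent results. All 12 G2/M genes, 13 of 14 spindle genes, 9 of 10 origin genes and 12 of 14 S phase genes were lower in non-dividing than in dividing Phase II cells. Birc5 was at 113 and 98.5 TPM in non-dividing cells, against 316 and 272 TPM in dividing Phase II cells (-1.47 ± 0.15, limma adjusted p = 7.53e-04). For dividing Phase II cells over the same parents, 706 genes differed (15.9%), 525 higher (11.9%) and 181 lower (4.09%), with 438 and 446 under median-ratio scaling and 382 and 364 under quantile normalization. The count fell to 218 without div12_48_d replicate 2, and to 447 and 303 without div12 replicate 1 or 2. In that comparison none of 12 G2/M genes was called, while 2 of 14 spindle genes, 5 of 10 origin genes and 7 of 14 S phase genes were lower in dividing Phase II cells and none was higher. Birc5 was lower too, at 316 and 272 TPM in dividing Phase II cells, against 540 and 505 TPM in parents (-0.83 ± 0.15, limma adjusted p = 0.00826).

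Outside the cycle genes, some were not called between both Phase II groups and others were called in either direction. Egr2 was at 114 and 101 TPM in dividing Phase II cells (difference 0.07, limma adjusted p = 0.929). Actn1 was at 32.8 and 71.7 TPM there (-0.30, limma adjusted p = 0.679) and Cxcr4 at 176 and 182 TPM (-0.25, limma adjusted p = 0.319). Klf2 was at 129 and 144 TPM in non-dividing cells and at 135 and 201 TPM in dividing Phase II cells (difference -0.27, limma adjusted p = 0.442), and Ccnd3 at 140 and 127 TPM in non-dividing cells and at 144 and 131 TPM in dividing Phase II cells (-0.05, limma adjusted p = 0.844); such p-values do not show that the groups are equal. S1pr3 was at 61 and 78.4 TPM in non-dividing cells, against 16.5 and 17.9 TPM in dividing Phase II cells (1.95 ± 0.22, limma adjusted p = 0.00106), and 7 of 9 MHC class II genes were higher in the non-dividing cells. Of 9 plasma cell genes 4 were lower in non-dividing than in dividing Phase II cells and none higher, Pim2 among them, at 363 and 320 TPM in non-dividing cells against 472 and 614 TPM in dividing Phase II cells (-0.66 ± 0.15). Of 15 B1 cell genes 9 were lower and none higher; Bhlhe41 was at 45.0 and 43.1 TPM in non-dividing cells and at 102 and 126 TPM in dividing Phase II cells (-1.34 ± 0.17). The call counts against dividing Phase II cells depended on single libraries, with 335 genes without div12_48_d replicate 1, and 553 and 628 without div12_48_u replicate 1 or 2.

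Set beside resting cells, the non-dividing cells were intermediate in the cycle genes and far from resting in others. Against naive, 1880 genes differed (42.5%), 675 higher (15.2%) and 1205 lower (27.2%), with 1131 in a fit of these 2 groups alone. The split turned under scaling, with 1124 higher and 881 lower under median-ratio scaling and 1211 and 812 under quantile normalization. In the G2/M list 11 of 12 genes were higher than in naive cells and 1 lower, and Birc5 was at 113 and 98.5 TPM in non-dividing cells, against 27.9 and 33.4 TPM in naive cells (1.76 ± 0.15, limma adjusted p = 7.95e-05). Of the 18 quiescence genes 13 were lower than in naive cells and none higher. Klf2 was at 129 and 144 TPM in non-dividing cells, against 2103 and 1292 TPM in naive cells (-3.58 ± 0.24), and S1pr1 at 137 and 195 TPM in non-dividing cells, against 852 and 556 TPM in naive cells (-2.06 ± 0.29). Apoe, at 693 and 1169 TPM in non-dividing cells and 655 and 968 TPM in naive cells, was not called (0.18 ± 0.38, limma adjusted p = 0.735). The naive libraries held more RNA of other cells, with myeloid lists of 175.5 to 180.5 TPM in non-dividing cells and 860.9 to 2673 TPM in naive cells, and their replicates differed most (SD 0.553 of the log2 ratio); the part of these in the difference was not tested.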

How the data were processed

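RNA of mouse splenic B cells was measured in 10 libraries of 5 groups, and the 4 libraries of div12_48_u and div12 form the comparison. Per the labels' protocols, ribosomal RNA was depleted from 100 ng of total RNA and 50 bp single-end reads were generated on a NextSeq 500. The values are TPM per transcript as the authors deposited them, on mm10, per the submitters' processing notes, which also name HISAT2, Salmon, featureCounts, HTSeq and DESeq2; the sources used here do not give their roles, their versions or the use of strand. Depth is unknown, so no count model was used.

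Of 13128 transcripts with values, 63 without a usable symbol (at most 0.379% of a library) were left out and 13065 were summed into 6610 genes, 734 of them at 0 in every library. The 4427 genes that reached 1 TPM in 2 or more libraries entered limma 3.58.1 (R 4.3.3) as log2(TPM + 1), with group as the only term over all 10 libraries, a trended empirical Bayes variance, 5 residual degrees of freedom, two-sided tests and Benjamini-Hochberg adjustment at 0.05; the procedure was tested on simulated data. All groups share 1 estimate of spread. Phase I replicates are independent per the labels; for Phase II nothing says that they came from separate cultures or animals, so p-values measure the spread between these libraries. Tables were handled in Python 3.11.15 with pandas 2.3.3.

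The members and the 39 gene lists were chosen with earlier results of these data known. Named genes are the 15 largest called rises and 15 largest called falls that averaged 10 TPM or more in the higher group and did not overlap, up to 4 called genes each way per list (the 2 most abundant where none was called), 8 set genes and 6 genes with opposite transcripts. The largest rises and falls were ranked without histones, unnamed gene models, immunoglobulin and T cell receptor segments and small RNAs. Other genes named were chosen after their values were seen. Some genes that these rules select are not reported here, while counts over lists and over all genes include them. Alternatives were other pseudocounts, filters, scalings, fits and single libraries left out.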

Additional observations from a re-analysis of the deposited data

Results flagged for a closer look

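For the 20 genes given here the non-dividing cells and the dividing Phase II cells were called in opposite directions relative to the same parents, by limma's adjusted threshold. The difference between both Phase II groups is the sum of both changes, so its size follows from this choice and is given as a description. The values are div12_48_u minus div12_48_d on the log2(TPM + 1) scale, and both groups are set against the same div12 libraries.

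In 10 of them the non-dividing cells were lower than the parents and the dividing Phase II cells higher. The difference was -3.23 for Cdkn2a, the locus of p16 and ARF, whose call against parents was lost under 9 alternatives. It was -2.57 for the chemokine Ccl3, whose call against parents was lost under 5 alternatives. For Crybb1 it was -2.41 at levels near the floor, with means of 0.102 TPM in non-dividing cells, 1.28 TPM in parents and 4.9 TPM in dividing Phase II cells. The difference was -2.38 for the potassium channel Kcnn4, -2.38 for the galectin Lgals1 and -2.20 for the alkaline phosphatase Alpl. It was -2.01 for the chemokine receptor Cxcr3, whose call was lost under 3, -1.94 for the carboxypeptidase Cpd, -1.84 for Fah of tyrosine breakdown and -1.14 for the chaperone Hsp90b1.

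In the other 10 the non-dividing cells were higher than the parents and the dividing Phase II cells lower. Their rises over parents were small and depend on the scaling: median-ratio scaling did not call 7 of the 10 (Bank1, Edaradd, Emid1, Itpr3, Lmo2, Nlrc3 and Ptprc), and quantile normalization did not call Edaradd, Emid1, Itpr3 and Nlrc3. Under median-ratio scaling the rise of Bank1 was 0.11 in place of 0.33 and that of Ptprc 0.16 in place of 0.37. The difference was 1.60 for the glycosyltransferase Gcnt1, 1.47 for Emid1, 1.30 for Dennd3, 1.25 for the cofactor Lmo2, 1.2 for Edaradd and 1.15 for the calcium channel Itpr3. It was 0.98 for Nlrc3, 0.89 for Il4ra, which encodes the interleukin-4 receptor alpha chain, 0.70 for the phosphatase Ptprc (CD45) and 0.70 for the adaptor Bank1.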

How the results depend on the processing

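Of 173 named calls between non-dividing cells and parents, 133 were kept under every alternative other than the 2-fold rule, 40 were lost under at least 1, and none changed sign; 4 other named genes gained a call. Of 78 list counts, 42 moved by over 1.5 times under at least 1 of these alternatives. Requiring a 2-fold change left 399 genes against parents, 249 against dividing Phase II cells, 774 against naive cells and 681 transcripts. A fit of the compared groups alone gave 1131 genes against naive cells. Leaving out 1 library gave 1212 to 2158 genes against parents, 335 to 1471 against dividing Phase II cells, 1322 to 1851 against naive cells and 838 to 2272 transcripts, the lone library of a group being assumed to vary like the others. Against parents the lowest count came without div12_48_u replicate 1. For transcripts the counts were 1113 and 838 without div12 replicate 1 or 2, and 863 and 1047 without div12_48_u replicate 1 or 2. For dividing Phase II cells over parents, whose count was 706, the 2-fold rule gave 244 genes and leaving out 1 library 218 to 1006. The other settings kept these counts within 1.5 times.

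With replicate number as a block the counts were 1745 genes against parents, 1017 against dividing Phase II cells, 1788 against naive cells and 1693 transcripts. The labels do not tie equal numbers, and the deviations of same-numbered non-dividing and parent libraries correlated at 0.157 over genes, with 2 pairs only, so the numbers were not taken as pairs; over the 10 pairs of groups the value ran from -0.238 to 0.199.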
